A study of Mus musculus with 6 samples.

Results

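The miR-26 family was described in extracellular vesicles from mouse muscle, as 6 of the 2110 miRNA loci of the deposited table. They are the 3 loci that carry miR-26a-5p (MIMAT0000533, at 2 loci) or miR-26b-5p (MIMAT0000534, at 1 locus), and the 3 loci of the opposite arms of the same hairpins, on the same strand and within 80 bases. The study sequenced small RNA from vesicles, which the labels call exosomes, of old muscle (3 libraries) and of young muscle (3 libraries). The labels give muscle as the tissue and old or young as the age class of each library; neither the ages themselves nor the strain, sex or muscles are stated there. No treatment, mutation or transgene is named for either group. Nothing in the labels ties a replicate to an animal or a pool of animals, and the spread behind every p-value below may therefore be a technical one.

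A miRNA is cut from a hairpin that can release a small RNA from each of its arms. One arm is usually loaded into the silencing complex and guides it to mRNAs through its seed, bases 2 to 8, while the opposite arm is usually degraded. The miR-26 hairpins lie in introns of the Ctdsp genes, which encode small phosphatases that act on the C-terminal domain of RNA polymerase II and take part in the silencing of neuronal genes outside the nervous system. In mouse myoblasts miR-26a is known to increase during differentiation and to repress the chromatin regulator Ezh2, and in muscle regeneration it represses Smad1 and Smad4, which carry BMP and TGF-beta signals.

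The family's sequences are shown because the guide strands are nearly identical whereas the opposite arms tell the hairpins apart. All 6 loci matched an entry of the RefSeq miRNA table (GRCm38.p6) at exactly the same position. In the mature sequences, written 5′ to 3′, capitals mark the seed.
miR-26a-5p: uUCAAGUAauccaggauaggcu
miR-26b-5p: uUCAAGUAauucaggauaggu
miR-26a-1-3p: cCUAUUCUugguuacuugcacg
miR-26a-2-3p: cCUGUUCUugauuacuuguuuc
miR-26b-3p: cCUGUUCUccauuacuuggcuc

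Both guide strands share the seed UCAAGUA, and no other mature miRNA of the RefSeq table has it. Counted from the 5′ end and with miR-26b-5p first, the guides differ by U11C and U21C over the 21 positions they share, and miR-26a-5p is 1 base longer. The opposite arms of the miR-26a hairpins differ from each other at 6 of 22 positions. With miR-26a-2-3p first, these are G4A, A11G, U19C, U20A, U21C and C22G, so that their seeds differ as well. The opposite arm of Mir26b differs from miR-26a-2-3p at 4 positions and has the same seed, CUGUUCU; it differs from miR-26a-1-3p at 8 positions.

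The hairpins themselves are shown with both counted arms in capitals, the guide first. Mir26a-1 lies at chr9:119031796-119031885, Mir26a-2 at chr10:126995530-126995613 and Mir26b at chr1:74394310-74394394, all on the plus strand.
Mir26a-1: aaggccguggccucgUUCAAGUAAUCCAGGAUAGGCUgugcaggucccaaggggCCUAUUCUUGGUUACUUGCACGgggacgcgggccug
Mir26a-2: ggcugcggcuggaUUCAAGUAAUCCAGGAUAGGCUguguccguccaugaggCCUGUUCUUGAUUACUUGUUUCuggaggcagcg
Mir26b: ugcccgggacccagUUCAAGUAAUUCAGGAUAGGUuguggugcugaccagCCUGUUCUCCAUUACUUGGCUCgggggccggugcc

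Each hairpin lay in an intron of a Ctdsp gene, on the gene's own strand, and none of the 6 loci touched an exon of any annotated transcript of the host or overlapped another counted locus. Mir26a-1 lies in intron 5 of 7 of the principal transcript of Ctdspl (miR-26a-5p at chr9:119031811-119031832, plus strand, mm10). Mir26a-2 lies in intron 5 of 7 of Ctdsp2 (miR-26a-5p at chr10:126995543-126995564, plus strand). Mir26b lies in intron 4 of 6 of Ctdsp1 (miR-26b-5p at chr1:74394324-74394344, plus strand). These introns are 3283, 1946 and 564 bases long in Ctdspl, Ctdsp2 and Ctdsp1.

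The libraries held 904892 to 1417733 counts in old and 1459826 to 1706396 in young. Old replicate 1 was the shallowest and stood apart, with a chi-square statistic over loci, divided by its degrees of freedom, of 176 and 281 against the other old libraries. That statistic was 30.2 between those libraries and 14.4 to 28.4 among the young ones.

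miR-26a-5p was one of the abundant miRNAs of the vesicles and miR-26b-5p a moderately abundant one. With its copies summed, miR-26a-5p held rank 8 by counts among mature miRNAs in all 3 old libraries and rank 6 to 8 in the young ones. miR-26b-5p held rank 26 to 31 in old and 23 to 32 in young libraries. The whole family took 2.98%, 2.75% and 2.43% of all counts in old replicates 1, 2 and 3, against 1.97%, 2.26% and 2.81% in young replicates 1, 2 and 3. The groups overlapped. The means were 2.72% ± 0.275 in old and 2.35% ± 0.423 in young (SD, n = 3 each), and a two-sided exact permutation test gave p = 0.3, where 3 against 3 libraries cannot go below 0.1. The opposite arms added almost nothing to this, with 6 to 15 counts per library.

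The table divides miR-26a-5p evenly between the copies, whose mature sequences are identical. Mir26a-1 had 11163, 16097 and 14360 counts in old replicates 1, 2 and 3, and 11773, 15587 and 16752 in young replicates 1, 2 and 3. Mir26a-2 had 11153, 16310 and 14148 counts in the old and 11611, 15874 and 16703 in the young libraries, in the same order. The share of the Mir26a-2 copy lay between 49.6% and 50.5%, and the exact 95% binomial interval held 50% in 6 of 6 libraries. Over all libraries it was 50.02% (interval 49.78% to 50.26%). Such intervals cover counting error only, since reads without molecular identifiers are not independent molecules. A read of the mature sequence cannot be assigned to a hairpin, so the even split gives no measure of what each hairpin produced. The sum of the copies is the measurement used from here on.

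In old muscle vesicles miR-26a-5p lay above every young library once scaled, but the difference did not pass the test, and miR-26b-5p was close to even. miR-26a-5p (MIMAT0000533) had 22284, 23085 and 22146 CPM in old replicates 1, 2 and 3, against 16409, 19041 and 21243 CPM in young replicates 1, 2 and 3 (CPM, the counts scaled to a common library size with TMM factors). The old libraries lay close together and above all young ones, among which young replicate 3 came nearest to them. The means were 22505 ± 507 CPM in old and 18897 ± 2421 CPM in young (SD, n = 3 each). The log2 fold change of old over young was 0.25 ± 0.16 (SE), a fold of 1.19 with a 95% interval of 0.940 to 1.51, and it did not pass edgeR's quasi-likelihood test (Benjamini-Hochberg adjusted p = 0.391 over 317 mature miRNAs). Without old replicate 1 the log2 fold change was 0.28 (95% interval of the fold 1.006 to 1.473; edgeR unadjusted p = 0.0436, adjusted p = 0.154). In that fit 97 of 330 miRNAs had an unadjusted p below 0.05, and miR-26a-5p did not pass after adjustment.

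The separation of the groups depended on the scaling. As a percent of all counts, miR-26a-5p took 2.47%, 2.29% and 2.06% in old replicates 1, 2 and 3, against 1.60%, 1.84% and 2.20% in young replicates 1, 2 and 3. On this scale young replicate 3 lay above old replicate 3, and the groups overlapped (exact permutation p = 0.2, two-sided). Groups that do not overlap were also common, since 26.2% of the 317 mature miRNAs tested had them on the scaled CPM in either direction, with 13.6% higher and 12.6% lower in old. For single loci the share was 27.1% of 347, with 14.1% higher and 13.0% lower in old. Among all tested miRNAs, 91 had a larger log2 fold change than miR-26a-5p. The median over all 317 was 0.0485.

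miR-26b-5p (MIMAT0000534) had 4613, 4658 and 3969 CPM in old replicates 1, 2 and 3, against 3813, 4245 and 5895 CPM in young replicates 1, 2 and 3. The groups overlapped, and young replicate 3 was the highest of the 6 libraries. The means were 4413 ± 386 CPM in old and 4651 ± 1098 CPM in young (SD, n = 3 each), with a log2 fold change of -0.08 ± 0.18 (SE; fold 0.949, 95% interval 0.733 to 1.23; edgeR adjusted p = 0.865). Without young replicate 3 its log2 fold change was 0.14 (adjusted p = 0.782), so that its direction rested on that library. Without old replicate 1 it was -0.08 (edgeR adjusted p = 0.767).

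**Figure D1:**
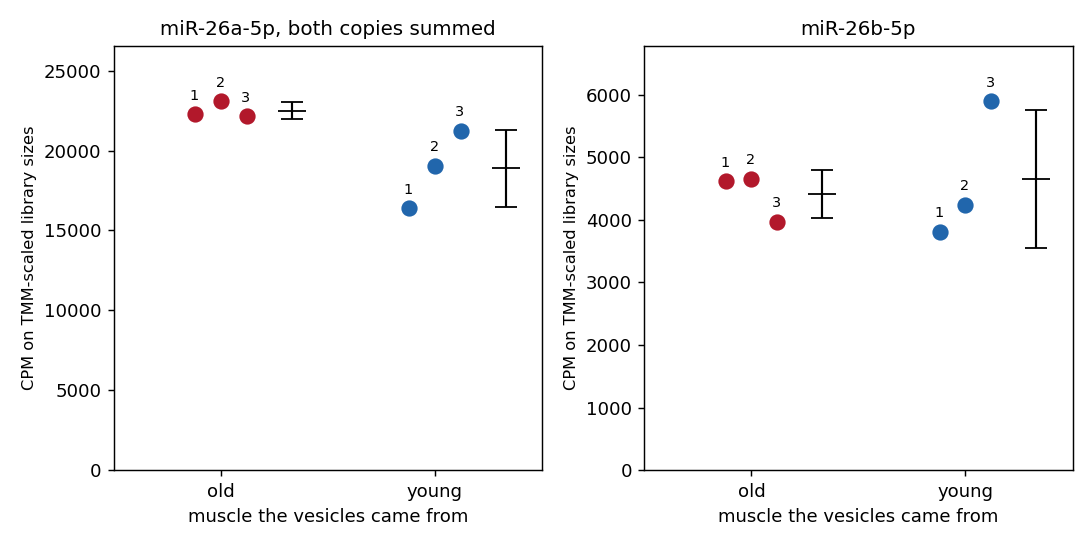
CPM on TMM-scaled library sizes (vertical axes, starting at 0) of miR-26a-5p with both copies summed (left) and of miR-26b-5p (right) in old and young muscle vesicles. Each point is a library with its replicate number, and the bar beside the points gives the mean and 1 SD over 3 libraries. The old libraries of miR-26a-5p sit between 22146 and 23085 CPM, above the young ones at 16409 to 21243 CPM, whereas those of miR-26b-5p overlap.

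Of the 6 loci of the family, 3 passed the filter on low counts, namely those of the guide strands, and the 3 opposite arms did not. With all 6 libraries, none of the guide loci passed edgeR's test when each locus was tested on its own, and neither summed guide strand had an unadjusted p below 0.05 or passed DESeq2. Each copy of miR-26a-5p gave nearly the value of their sum, with log2 fold changes of 0.26 at both Mir26a-1 and Mir26a-2 (edgeR adjusted p = 0.364 and 0.368). In the same comparison 5.05% of the 317 mature miRNAs were called, 3.47% higher and 1.58% lower in old. Of the 347 single loci 4.32% were called, 3.46% higher and 0.865% lower in old.

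**Figure D2:**
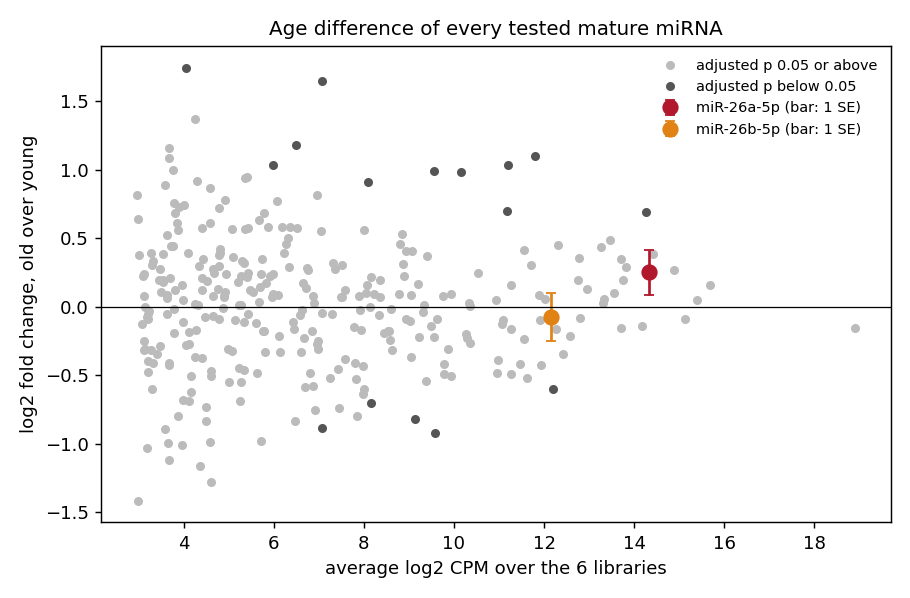
Log2 fold change of old over young (vertical axis) against the average log2 CPM over the 6 libraries (horizontal axis) for the 317 mature miRNAs tested, with copies summed. Grey points did not pass an adjusted p of 0.05, dark points did, and the bars on the coloured points give 1 SE. miR-26a-5p, at 0.25, and miR-26b-5p, at -0.08, lie within the cloud of miRNAs that were not called.

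The guide strands were also compared directly with each other, which needs no scaling factor because both are counted in the same library. They are 22 and 21 bases long, so that length hardly enters the ratio, although a ratio of counts of different sequences need not be a ratio of molecules. For every 100 counts of miR-26a-5p there were 20.7, 20.2 and 17.9 counts of miR-26b-5p in old replicates 1, 2 and 3, against 23.2, 22.3 and 27.7 in young replicates 1, 2 and 3. All 3 old libraries lay below all 3 young ones.

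The ratio averaged 19.6 ± 1.48 in old and 24.4 ± 2.91 in young (SD, n = 3 each), and the log2 ratio was lower in old by a difference of -0.31. A two-sided exact permutation test gave p = 0.1, the smallest that 3 against 3 libraries allow. When all mature miRNAs were tested by edgeR with each library scaled by its own miR-26a-5p count, an alternative chosen after the data were seen, miR-26b-5p had a log2 fold change of -0.32 ± 0.23 (SE) and did not pass (adjusted p = 0.424, 95% interval of the fold 0.585 to 1.101). In that comparison 10.8% of 316 miRNAs passed, and 8.86% did so with old lower. Groups that do not overlap in the ratio to miR-26a-5p were found for 27.2% of these miRNAs, and for 22.2% with old lower.

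**Figure D3:**
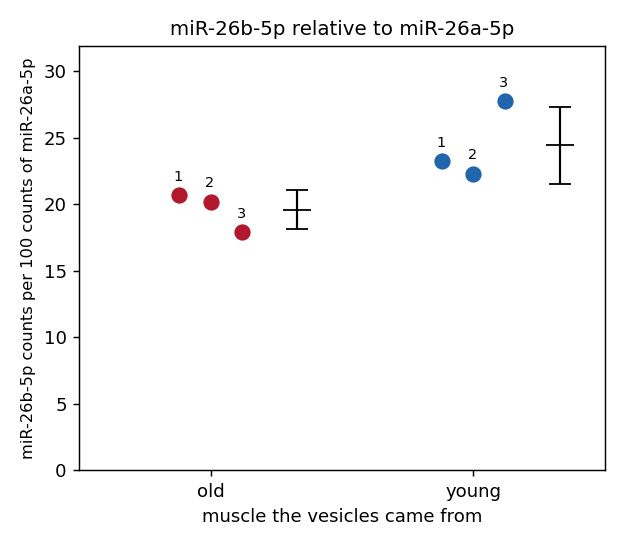
Counts of miR-26b-5p per 100 counts of miR-26a-5p (vertical axis, starting at 0) in old and young muscle vesicles. Each point is a library with its replicate number, and the bar beside the points gives the mean and 1 SD over 3 libraries. The old libraries sit at 17.9 to 20.7 and the young ones at 22.3 to 27.7.

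The opposite arms, whose sequences are given above, were counted only a few times per library. miR-26b-3p was the most frequent of them, with 5, 12 and 7 counts in old replicates 1, 2 and 3, against 8, 5 and 9 in young replicates 1, 2 and 3. miR-26a-2-3p had 1, 3 and 0 counts in the old and 5, 7 and 2 in the young libraries, in the same order. miR-26a-1-3p had 0, 0 and 2 counts in the old and 0, 1 and 1 in the young libraries. The old and young libraries overlapped for all 3 arms, and a count of 0 allows up to 3 counts, or 2.12 to 3.32 CPM of the library total in old and 1.76 to 2.06 CPM in young libraries.

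Between the miR-26a hairpins, the arm of Mir26a-2 was counted more often than that of Mir26a-1 in 5 of 6 libraries, the exception being old replicate 3. Summed over the libraries, miR-26a-2-3p made up 18 of 22 counts, or 81.8% (exact 95% binomial interval 59.7% to 94.8%). It made up 4 of 6 counts in old (66.7%, interval 22.3% to 95.7%) and 14 of 16 in young libraries (87.5%, interval 61.65% to 98.45%). The intervals of old and young overlapped, and a difference between the groups in this share was not tested. The uneven arms stand beside guide copies that were split at 50.02%, and these 22 counts are all that the table holds on which miR-26a hairpin a read came from. How strongly each hairpin was transcribed or its opposite arm preserved cannot be told apart from them.

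**Figure D4:**
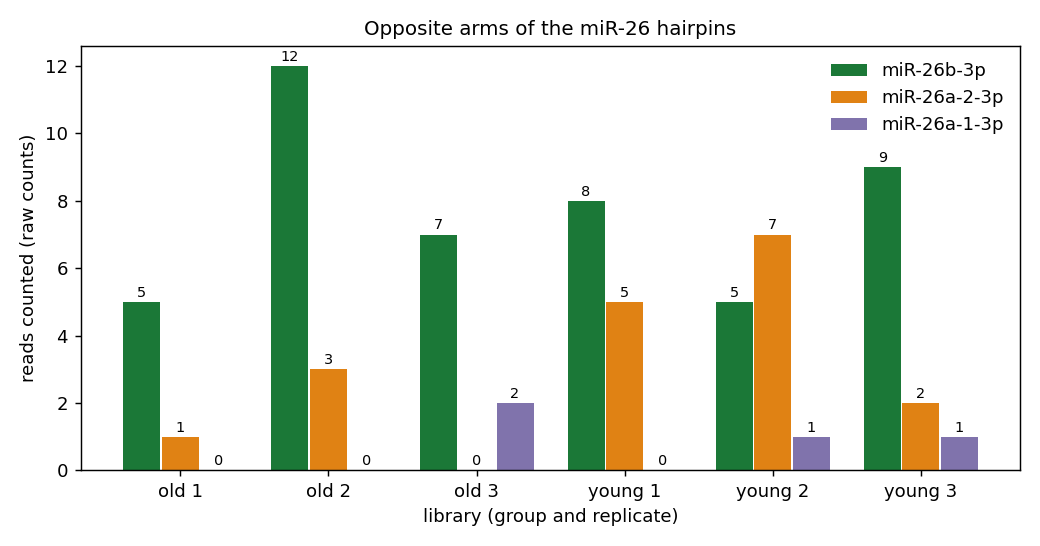
Raw counts of the opposite arms of the 3 miR-26 hairpins (vertical axis) in each library (horizontal axis). Bars give miR-26b-3p, miR-26a-2-3p and miR-26a-1-3p, with the count printed above each. No bar exceeds 12 counts, and miR-26a-1-3p has 2 counts at most.

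Relative to its guide strand, the opposite arm of Mir26b was more frequent than those of the miR-26a hairpins. miR-26b-3p made up 0.108%, 0.183% and 0.137% of the counts of its hairpin in old replicates 1, 2 and 3, against 0.147%, 0.0712% and 0.0969% in young replicates 1, 2 and 3. The 3p arms of both miR-26a hairpins together made up 0.00448%, 0.00926% and 0.00702% of the miR-26a counts in the old, against 0.0214%, 0.0254% and 0.00897% in the young libraries. The share was higher for Mir26b in 6 of 6 libraries, and the exact 95% binomial intervals did not meet in 5 of them. Summed over the libraries, the shares were 0.121% (46 of 38045 counts, interval 0.0885% to 0.161%) and 0.0128% (22 of 171553, interval 0.00804% to 0.0194%), a ratio of 9.43.

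Neither share passed a test between old and young. The share of miR-26b-3p averaged 0.143% ± 0.0379 in old and 0.105% ± 0.0385 in young (exact permutation p = 0.3, two-sided, n = 3 each), and the share of the miR-26a 3p arms 0.00692% ± 0.00239 in old and 0.0186% ± 0.00858 in young (exact permutation p = 0.2, n = 3 each). Together the opposite arms of the family had 6.63, 10.6 and 6.50 CPM of the library total in old replicates 1, 2 and 3, against 8.91, 7.62 and 7.88 in young replicates 1, 2 and 3.

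Both values lay below the median of the other hairpins. Of 138 other hairpins with 2 counted arms and a mean of at least 100 counts for the larger one, the median share of the smaller arm was 0.874%, and 37 hairpins had a smaller share than Mir26b. Besides miR-26a-5p, 19 mature miRNAs with such counts came from identical copies whose opposite arms have identifiers of their own, and 11 of these had copies within 1.1-fold of each other. Their opposite arms took a median of 0.599% of the counts, and only miR-194-5p and miR-92a-3p, named after their values were seen, had a smaller share than the 0.0128% of miR-26a. Of the 138 hairpins above, 21 had a smaller share than miR-26a. The most abundant of the 19, let-7c-5p and let-7f-5p, members of the let-7 family of differentiated cells, had 3876 and 683 counts on their opposite arms. Of these, let-7c-2-3p was listed with 99.95% and let-7f-1-3p with 85.4%. The 3874 counts of let-7c-2-3p lay close to the 3955 of let-7a-1-3p, an opposite arm of let-7a-5p. Whether reads of these arms can be assigned to 1 hairpin was not tested. The percents listed for the let-7 arms are therefore not read as the output of a hairpin.

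Likeness to the family was measured as the root mean square difference of log2 CPM, centred on each miRNA's mean, over the 6 libraries and 101 other miRNAs with an average log2 CPM of at least 8. The miRNAs most like miR-26a-5p were let-7j (0.0927), miR-199b-3p (0.134) and miR-199a-3p (0.143), where the median over all was 0.297. The miR-199 guides have the same mature sequence and stand for 1 measurement. miR-26b-5p came at place 12 for miR-26a-5p (0.195). The miRNAs most like miR-26b-5p were miR-872-5p (0.180), miR-26a-5p (0.195) and let-7f-5p (0.196), with a median of 0.323. These values describe the 6 libraries and carry no test.

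Other miRNAs that act on the same processes gave the setting for these values. Of 5 miRNAs known to repress Ezh2 besides miR-26a, 4 were tested, and none passed edgeR's test or DESeq2. At an unadjusted p below 0.05 there were 2 of the 4, where 22.4% of all 317 miRNAs were. Their median log2 fold change was 0.343, against 0.0485 over all miRNAs. Without old replicate 1 none of them passed either, with 5 tested. The most abundant was miR-214-3p, which takes part in a feedback with Ezh2 in mouse muscle cells and is also on the myogenic and fibroblast lists, with 754 ± 120 CPM in old and 1008 ± 98.3 CPM in young (SD, n = 3 each; log2 fold change -0.42 ± 0.18, edgeR adjusted p = 0.162). miR-124a-3p, a neuronal miRNA, had 85.7 ± 6.37 CPM in old and 57.3 ± 10.7 CPM in young (log2 fold change 0.58 ± 0.25, edgeR adjusted p = 0.167).

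Of 17 miRNAs that act in myogenic differentiation, 14 were tested; 3 rose in old, none fell and 11 did not pass edgeR's test, where 3.47% of all miRNAs were called higher and 1.58% lower. The median of their log2 fold changes was 0.223; miR-486-5p and miR-24-3p were listed at 0. The 3 that rose were miR-133a-3p (log2 fold change 1.101 ± 0.18, adjusted p = 0.000728), which promotes myoblast proliferation, miR-499-5p of slow fibres (0.99 ± 0.17, adjusted p = 0.000728) and miR-1a-3p, which promotes myoblast differentiation (0.70 ± 0.18, adjusted p = 0.021). The most abundant ones, miR-206-3p of regenerating muscle (0.16 ± 0.21, adjusted p = 0.765) and miR-378a-3p, which acts on energy metabolism (0.38 ± 0.16, adjusted p = 0.165), did not pass. Without old replicate 1, 6 of the 14 rose and none fell, among them the same 3 and miR-378a-3p. In that fit, over 330 miRNAs, 7.58% were called higher and 7.27% lower in old.

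The Ctdsp phosphatases and miR-26 are known from human cells to restrain the G1/S transition of the cell cycle through the retinoblastoma protein. Of 11 other miRNAs that restrain this transition, all were tested, and none passed edgeR's test or DESeq2. At an unadjusted p below 0.05 there were 2 of the 11, near the 22.4% of all miRNAs. Their log2 fold changes had a median of -0.0924. The most abundant were let-7c-5p, with 34700 ± 11360 CPM in old and 36990 ± 861 CPM in young (log2 fold change -0.09 ± 0.20, edgeR adjusted p = 0.855), and let-7b-5p (-0.14 ± 0.20, edgeR adjusted p = 0.783). In old replicate 1 this list took 11.6% of all counts, against 6.04% and 7.04% in the other old libraries and 8.15% to 8.25% in the young ones. Without that library 1 of the 11, let-7b-5p, fell, where 7.27% of all miRNAs did.

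The miRNAs that mark muscle were present, with all 4 tested. Of them 3 rose, the same 3 as in the myogenic list. Over all 317 miRNAs, 3.47% were called higher and 1.58% lower in old. The muscle markers took 4.53% to 9.83% of the counts in old against 4.90% to 6.19% in young. The 9.83% was old replicate 1, and the other old libraries had 5.76% and 4.53%. Most of these counts were miR-206-3p, which did not pass, with 432815 counts over all libraries. The 3 that rose had 28079 (miR-133a-3p), 18562 (miR-1a-3p) and 9245 (miR-499-5p). Markers of smooth muscle and fibroblasts (4 of 4 tested; miR-143-3p rose) took 3.59% to 4.36% in old and 2.81% to 3.11% in young. The other 3 did not pass, with log2 fold changes of 0.41 (miR-145a-5p), 0.19 (miR-199a-3p) and -0.42 (miR-214-3p). Most counts of this sum were miR-143-3p (159517 over all libraries) and miR-199a-3p (115600), against 7463 for miR-214-3p and 4005 for miR-145a-5p. Red blood cell markers (2 of 2) took 4.12% to 4.52% in old and 4.03% to 4.36% in young. Leukocyte markers (5 of 6 tested) took 0.0917% to 0.111% in old and 0.113% to 0.140% in young, with miR-142a-3p at 0. Among them miR-155-5p, which is induced in activated immune cells, fell (log2 fold change -0.82 ± 0.18, edgeR adjusted p = 0.00966), and the other 4 had values of 0.08 to 0.78 and did not pass. Without old replicate 1, miR-142a-5p, another of these markers, rose, where 7.58% of all miRNAs did. Liver (1 of 2 tested), epithelial (1 of 4) and neural markers (2 of 3) each took under 0.02% in every library, with miR-122-5p and miR-9-5p at 0, and endothelial miR-126a-3p was listed at 0. As percents of all counts, the summed smooth muscle and fibroblast, leukocyte and neural markers did not overlap between the groups. Of single miRNAs 26.2% did not either, but on the scaled CPM, which is another scale. The loci of miR-126a-3p, miR-142a-3p, miR-9-5p and miR-24-3p each overlap a locus on the other strand, so that a 0 there gives no level of the miRNA. For miR-486-5p and miR-122-5p such an overlap was not established, and their 0 is not read as absence. In vesicles from a whole tissue, a change in the cells that release a miRNA and a change in the amount per cell cannot be told apart, and the part of these markers in the values of the miR-26 family was not tested.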

How the data were processed

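The deposited values are raw counts of reads at each mature miRNA locus, made by the authors with featureCounts version 2.0.6 per the file headers, with no strand option and no option for reads that map to more than 1 place. Reads were aligned with BWA to mm10, per the submitters' processing notes; neither its settings nor any trimming of adapters is recorded there.

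Loci were named by exact position in the RefSeq miRNA table (GRCm38.p6; 1734 of 2110) or, for 362 more, from the GENCODE M21 miRNA gene around them (tolerance 3 bases). Old and young were compared with edgeR 4.0.16 (R 4.3.3; filterByExpr minimum count 10 and total 15, TMM, quasi-likelihood test, Benjamini-Hochberg adjustment over all features, threshold 0.05), for each locus and with copies summed. Intervals of folds came from the fit's SE and degrees of freedom. Exact permutation tests, two-sided, served for single ratios and shares (SciPy 1.17.1), and DESeq2 1.42.0 was an alternative. The procedure was tested on simulated data. With copies summed, it called 16 of 44 miRNAs changed 1.5-fold, 40 of 49 changed 2-fold and 2 of 164 left unchanged. Smaller changes were not simulated. The simulated counts shared a common dispersion, and no simulated library stood apart as old replicate 1 did, so rates in the real libraries may differ. No replicate pair within a group agreed within sampling noise.

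The members and lists were chosen with earlier results of these data known. Named besides the members were the 3 miRNAs most like each guide, and from each list the 2 most abundant and any past the threshold. Marker lists were summed, and their members are named only where past the threshold, at 0 or needed to read the sum. Depth was 904892 to 1706396 counts per library. Counts of list members without old replicate 1 were added after the data were seen.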

Additional observations from a re-analysis of the deposited data

How the results depend on the processing

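Neither guide strand passed under any of 12 alternatives tried for each with copies summed (lowest adjusted p 0.0951, with old replicate 1 and young replicate 3 both left out, an alternative chosen after seeing the data). Leaving out 1 library at a time, the log2 fold change of miR-26a-5p ranged from 0.13 to 0.35 and that of miR-26b-5p from -0.23 to 0.14, where it reversed without young replicate 3. It was also 0.10 with old replicate 1 and young replicate 3 left out. Tested as a single locus, it ranged from -0.22 to 0.15 and reversed without old replicate 3 (0.001) and without young replicate 3. The log2 ratio of miR-26b-5p to miR-26a-5p kept its direction, at -0.38 to -0.22 with 1 library left out. The difference in CPM of all opposite arms ranged from -1.57 to 0.47, and that in the share of the Mir26a-2 copy from -0.21 to 0.19 percentage points. The first reversed without old replicate 1 (0.41), old replicate 3 (0.47) and young replicate 1 (0.16), and the second without old replicate 3 (0.14) and young replicate 2 (0.19). The number of miRNAs called changed more: 16 with copies summed, 4 to 49 with 1 library left out (49 without old replicate 1, 4 without old replicate 2, 14 without old replicate 3, and 5, 7 and 6 without young replicates 1, 2 and 3), 36 with both libraries left out and 7 on library totals; 15 single loci, 5 to 45 with 1 library left out. With a replicate block, 6 single loci and 17 summed miRNAs were called, and miR-26a-5p stood at 0.26 and miR-26b-5p at -0.05. The labels do not say whether same-numbered libraries belong together. Their deviations correlated at -0.09, 0.02 and -0.13, and such values cannot settle it. The causes were not tested. Depth limits the opposite arms, where 3 counts equal 1.76 to 3.32 CPM.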
